A study of Saccharomyces cerevisiae with 9 samples.

Results

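The 10 genes described here encode proteins that splice tRNA, mature its ends and help it leave the nucleus in budding yeast, and they were chosen by symbol: SEN2, SEN34, SEN54, SEN15, TRL1, TPT1, CCA1, LHP1, CEX1 and UTP8. They are 10 of 5449 Saccharomyces cerevisiae genes measured. RNA came from 3 cultures of BY4742 with LOS1 deleted (cultures 7 to 9, whose titles name URA3) and from 6 cultures of its parent BY4742 (wild type, cultures 1 to 6), and each culture gave 1 Affymetrix Yeast_2 array. BY4742 is a haploid laboratory strain with deletions at URA3, LEU2, LYS2 and HIS3. All cultures were shaken at 225 rpm and 30 °C in rich glucose medium (YEPD), harvested at an OD600 of 0.5 and lysed in a buffer with cycloheximide. The labels give 3 isolates of each strain, with duplicate cultures of the wild type, but no map of cultures to isolates. The p-values and intervals therefore rest on culture-to-culture spread, part of which lies within an isolate in wild type. The 6 wild-type arrays were fitted as independent, so the intervals may be too narrow.

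Many yeast tRNAs are made as longer precursors, and some carry an intron next to the anticodon. The ends are trimmed in the nucleus, CCA is added to the 3′ end, and exportins such as Los1 carry the tRNA through the nuclear pore. In yeast, splicing follows outside the nucleus, where the Sen endonuclease sits on the surface of mitochondria, and yeast without Los1 is known to accumulate precursors that still hold their intron. The arrays measured the mRNAs of the proteins that do this work. The tRNAs themselves were not analysed here.

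LOS1 transcript (YKL205W) was at 3.65, 2.76 and 3.18 in the deletion cultures, under background on each, against 10.89 to 11.34 in wild type, so it was at least 84.1-fold lower in the deletion (limma adjusted p = 4.79e-10). URA3 (YEL021W) was at 10.88 ± 0.04 in the deletion (SD, n = 3) and under background on every wild-type array, at 3.06 ± 0.21 (SD, n = 6). Loss of LOS1 and presence of URA3 therefore cannot be told apart in this comparison. LEU2 and LYS2 lay near background in both groups, at 4.08 to 4.77 in the deletion and 4.21 to 4.86 in wild type. All values are RMA log2 expression, in which 1 unit is a factor of 2. Background was the 95th percentile of the fission yeast probe sets on the same array, 4.68 to 4.74. In each fold that used a group under background, that group was set to this level.

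None of the 10 genes passed the test between deletion and wild type. By limma with Benjamini-Hochberg adjustment over 5449 genes, 0 of the 10 had an adjusted p under 0.05, where 5.52% of all genes did (2.62% higher and 2.9% lower in the deletion). At an unadjusted p under 0.05 the count was also 0 of 10, against 22.0% of all genes. The deletion and wild-type arrays overlapped for all 10, whereas 12.6% of all genes had groups that did not overlap. Differences (deletion minus wild type) ran from -0.11 for CCA1 to 0.023 for LHP1 on the log2 scale, with a median of -0.035, beside a median of -0.012 over all genes. The median size of the difference was 0.035 for the 10 genes and 0.073 for all genes.

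**Figure D1:**
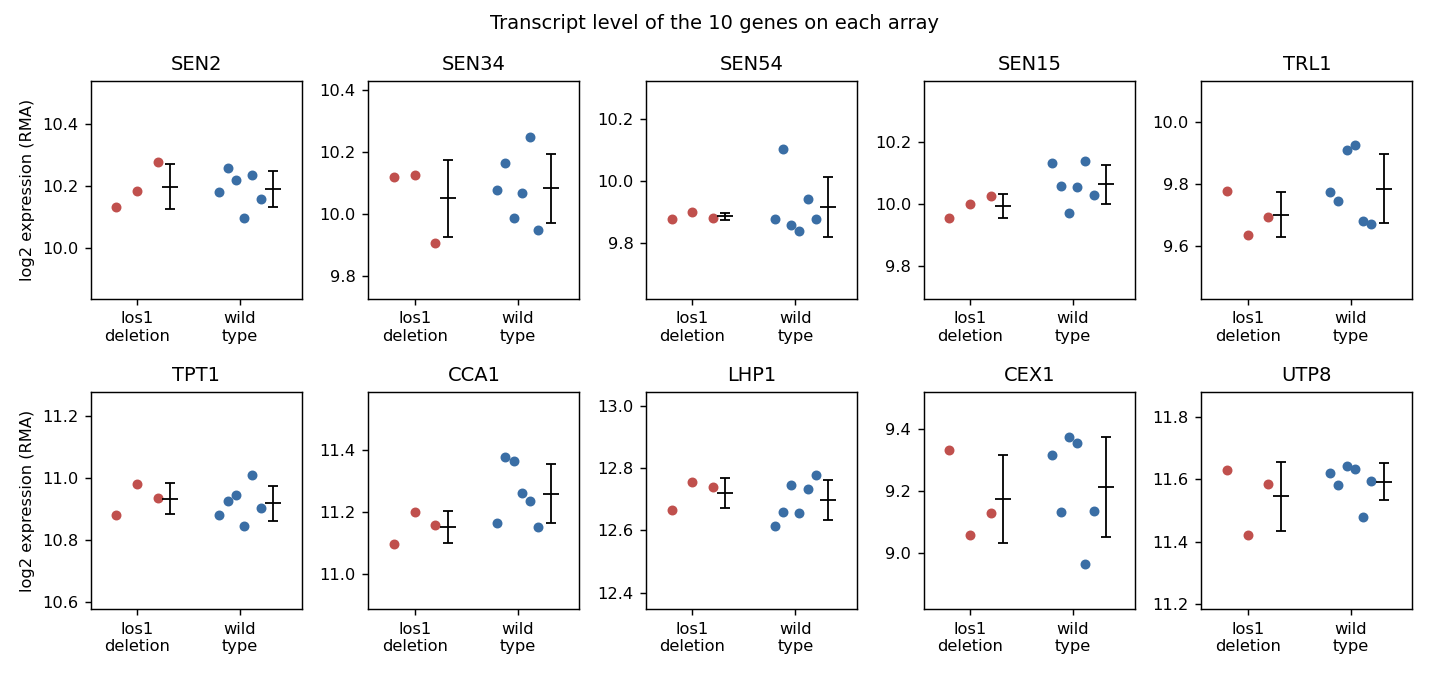
Log2 expression (RMA, vertical axis) of each of the 10 genes on the 3 deletion arrays (red) and the 6 wild-type arrays (blue). Each point is 1 culture, black marks give mean and SD, and every panel spans the same height on the log2 axis but is centred on its own gene. The 2 groups overlap in every panel.

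The tRNA splicing endonuclease is a complex of 4 proteins, in which Sen2 and Sen34 are the cutting subunits. SEN2 (YLR105C) was at 10.13, 10.18 and 10.28 in deletion cultures 7, 8 and 9, against 10.10, 10.20 and 10.26 as the lowest, median and highest of the wild-type cultures. Its difference was 0.0063 (95% confidence interval -0.10 to 0.11, limma adjusted p = 0.954). Culture 9 lay just above every wild-type culture and the other deletion cultures lay within the wild-type range. SEN34 (YAR008W) was at 10.12, 10.13 and 9.91 in the deletion, against a lowest, median and highest value of 9.95, 10.07 and 10.25 in wild type. Its difference was -0.031 (interval -0.20 to 0.13, limma adjusted p = 0.844). Here culture 9 was the low one, below every wild-type culture, so the cutting subunits had opposite extremes in the same culture.

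Sen54 and Sen15 are the subunits that do not cut. SEN54 (YPL083C) was at 9.88, 9.90 and 9.88 in the deletion, the closest agreement among deletion cultures of the 10 genes, against 9.84, 9.88 and 10.10 as the lowest, median and highest in wild type. Its difference was -0.030 (interval -0.16 to 0.10, limma adjusted p = 0.809). Wild-type culture 2 held the highest value, and the next was 9.94 in culture 5. SEN15 (YMR059W) was at 9.95, 10.00 and 10.03 in the deletion, against 9.97, 10.05 and 10.14 in wild type. All 3 deletion cultures lay below the wild-type mean and 1 of them below every wild-type culture, but the difference of -0.069 did not pass (interval -0.17 to 0.033, limma adjusted p = 0.414). Counted together, each deletion culture had 1 of the 4 subunits above its wild-type mean, while among wild-type cultures the number went from 0 of 4 in cultures 4 and 6 to 4 of 4 in culture 5. The deletion cultures thus lay inside the wild-type spread of this count.

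After the cut, the ligase Trl1 joins the exons and Tpt1 removes the phosphate left at the junction. TRL1 (YJL087C) was at 9.78, 9.64 and 9.69 in the deletion, against 9.67, 9.76 and 9.93 as the lowest, median and highest in wild type. Its difference was -0.083, or 0.944-fold (interval -0.23 to 0.067, limma adjusted p = 0.511). Culture 8 lay below every wild-type culture, and wild-type cultures 3 and 4, at 9.91 and 9.93, stood above the rest. TPT1 (YOL102C) was at 10.88, 10.98 and 10.94 in the deletion, against 10.85, 10.91 and 11.01 in wild type, so every deletion value lay inside the wild-type range. Its difference was 0.015 (interval -0.086 to 0.12, limma adjusted p = 0.883).

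End maturation is represented by Cca1, the nucleotidyltransferase that adds CCA to tRNA 3′ ends, and by Lhp1, the yeast La protein, which binds the uridine tail of new RNA polymerase III transcripts. CCA1 (YER168C) had the smallest unadjusted p of the 10 genes (0.0999). It was at 11.10, 11.20 and 11.16 in the deletion, against 11.15, 11.25 and 11.38 as the lowest, median and highest in wild type. All 3 deletion cultures lay below the wild-type mean and culture 7 below every wild-type culture, with wild-type cultures 6 and 1 among the deletion values. The difference of -0.11, or 0.928-fold, did not pass (interval -0.24 to 0.024, limma adjusted p = 0.323). LHP1 (YDL051W) averaged 12.72 ± 0.05 in the deletion (SD, n = 3) and 12.70 ± 0.06 in wild type (SD, n = 6), and all 3 deletion cultures lay inside the wild-type range of 12.61 to 12.78. Its difference was 0.023 (interval -0.083 to 0.13, limma adjusted p = 0.824).

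The export helpers act on either side of the pore: Utp8 is a nucleolar protein that takes part in making the small ribosomal subunit and in handing tRNA to export receptors, and Cex1 is a cytosolic protein that receives tRNA from them. UTP8 (YGR128C) was at 11.63, 11.42 and 11.59 in the deletion, against 11.48, 11.61 and 11.64 as the lowest, median and highest in wild type. Culture 8 was low in the deletion and culture 5 in wild type, and the other 7 arrays lay between 11.58 and 11.64. The difference was -0.047 (interval -0.17 to 0.077, limma adjusted p = 0.669). CEX1 (YOR112W) was at 9.33, 9.06 and 9.13 in the deletion, against 8.97, 9.23 and 9.37 in wild type. Wild-type cultures 1, 3 and 4 were high, at 9.32, 9.37 and 9.36, cultures 2 and 6 were at 9.13 and 9.14, and culture 5 was lowest, while in the deletion culture 7 lay with the high ones. CEX1 had the largest wild-type SD of the 10 genes, 0.16, which was above that of 88.4% of all genes, and its difference was -0.039 (interval -0.25 to 0.18, limma adjusted p = 0.851).

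A p that misses the threshold does not show equal levels, so the intervals carry the result. Over the 10 genes, the 95% intervals of the fold change, each for a single gene, reached down to 0.839-fold and up to 1.13-fold, both at CEX1. Without culture 7 the lowest bound was 0.782-fold, and without culture 8 the highest was 1.204-fold. At each gene's own error, a difference of 0.18 (TPT1) to 0.38 (CEX1) on the log2 scale would have been needed to pass, and the observed differences were at most 0.462 of that size. Of the 301 genes that passed, the smallest difference was 0.16 in size and the median was 0.35.

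**Figure D2:**
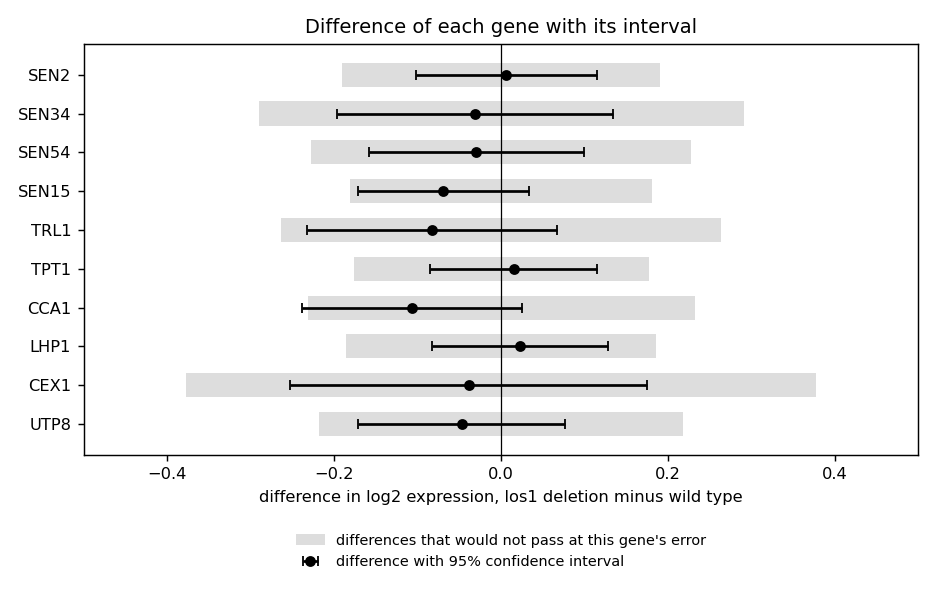
Difference in log2 expression (deletion minus wild type, horizontal axis) of each gene, with its 95% confidence interval from limma (n = 3 deletion and 6 wild-type arrays). Grey bars show the differences that would not have passed at each gene's error, from 0.18 for TPT1 to 0.38 for CEX1, and every point lies inside its bar.

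The longest of the 10 genes shared a pattern over some of the cultures. The genes TRL1, CEX1 and UTP8, of 2484, 2286 and 2142 bp, belong to the longest of 4 equally filled length classes of all genes (over 1899 bp). All 3 lay below their wild-type mean in deletion culture 8, by 0.15 to 0.17, and in wild-type culture 5, by 0.10 to 0.25, and all 3 lay above it in wild-type cultures 3 and 4, by 0.042 to 0.16. The same genes also lay below it in deletion culture 9 and wild-type culture 2. In deletion culture 7 and wild-type cultures 1 and 6 they lay on both sides of it. SEN15 and TPT1, of 387 and 693 bp, belong to the shortest class (up to 756 bp) and lay above their wild-type mean in culture 5, by 0.074 and 0.090. Both lay below it in deletion culture 7 and in wild-type cultures 4 and 6. In the remaining cultures they lay on opposite sides of it. For example, in deletion culture 8 SEN15 lay at -0.063 and TPT1 at 0.063, and in wild-type culture 3 SEN15 lay at -0.091 and TPT1 at 0.027.

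Over all genes, values also went with gene length. The median of the longest class differed from the wild-type mean by -0.018, -0.10 and -0.040 in deletion cultures 7, 8 and 9, and by 0.086, 0.039 and -0.092 in wild-type cultures 3, 4 and 5. In the shortest class these medians were 0.0087, 0.074 and 0.046 in the deletion and -0.051, -0.050 and 0.089 in the same wild-type cultures. In wild-type cultures 1, 2 and 6 the longest class lay at 0.010, 0.0058 and -0.050, and the shortest at 0.017, -0.024 and 0.030. Across genes within an array, which are not independent replicates, Spearman's rho between length and the difference from the wild-type mean ran from -0.40 to -0.078 in the deletion and from -0.58 (culture 5) to 0.53 (culture 3) in wild type. Between the groups, rho was -0.30: the median difference was 0.043 in the shortest class and -0.052 in the longest, where 71.4% of genes were lower in the deletion.

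With a smooth trend on length taken out of each array, a step chosen after the data were seen, 0 of the 10 genes passed by limma, where 7.96% of all genes did. At an unadjusted p under 0.05 the count was 1 of 10, against 24.8% of all genes. That gene was SEN15, whose difference became -0.13 (interval -0.22 to -0.039, limma adjusted p = 0.0799, the lowest of its 18 alternative fits, which reached 0.684) with deletion and wild-type arrays that no longer overlapped, as for 15.3% of all genes after this step. The differences of TRL1 and CCA1 became -0.029 and -0.069. Those of CEX1 and UTP8 turned to 0.014 and 0.0044, and that of TPT1 turned to -0.011. The wild-type SD of UTP8 was 0.031 after this step and 0.060 before it, and that of TRL1 was 0.065 after and 0.11 before, while SEN54 (0.0982 after, 0.0979 before) and LHP1 (0.0683 after, 0.0638 before) had no smaller SD. The median SD over all genes was 0.0739 after and 0.0895 before. A true effect of the deletion that follows gene length would be removed by the same step.

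**Figure D3:**
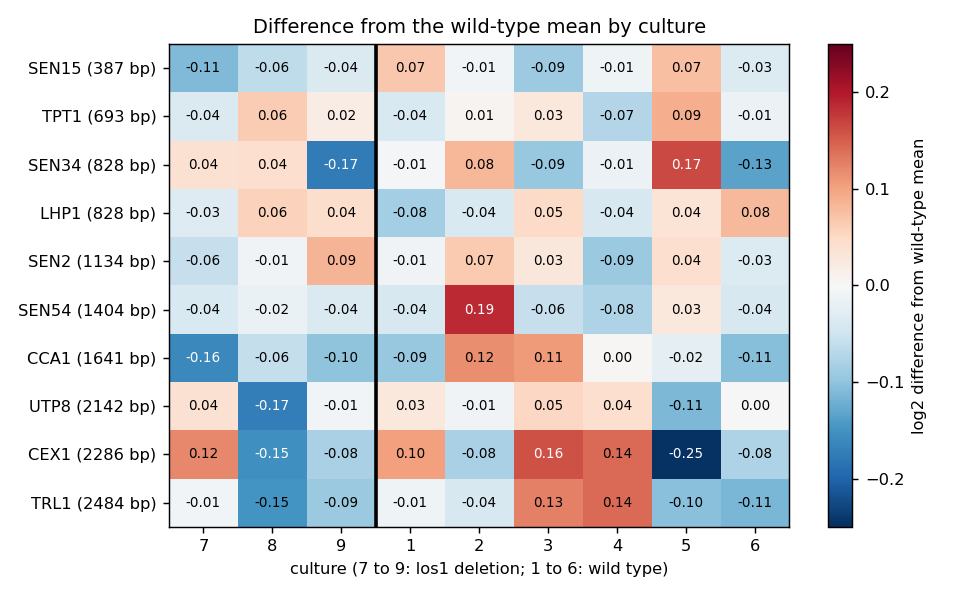
Log2 difference of each gene from its wild-type mean (colour and printed value) on every array, deletion cultures left and wild-type cultures right of the line, with genes ordered from shortest (top) to longest (bottom). The 3 longest genes are low in cultures 8 and 5 and high in cultures 3 and 4.

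**Figure D4:**
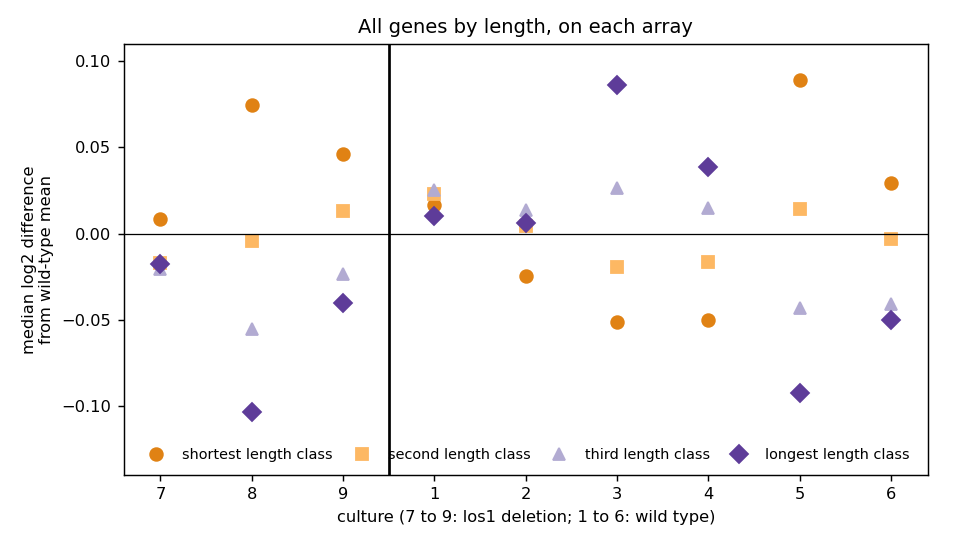
Median log2 difference from the wild-type mean (vertical axis) of all genes in each of 4 length classes, for each array, deletion cultures left and wild-type cultures right of the line. The classes fan out in deletion culture 8, where the shortest lies at 0.074 and the longest at -0.10, almost as far as in wild-type culture 5 (0.089 and -0.092), and in the reverse order in wild-type culture 3 (-0.051 and 0.086).

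Other genes of tRNA handling were read from 6 lists of 54 genes, all of them measured. Of all genes 5.52% passed the threshold, and a count of 0 in lists this short is near that share. RNase P, which cuts the 5′ end of tRNA precursors, had 0 of 10 genes past the threshold, with a median difference of 0.067. The smallest p was that of RPR2, a protein subunit, with 0.14 (limma adjusted p = 0.171). Trimming and protection of the 3′ end, with the tRNase Z gene TRZ1 and the Lsm proteins, had 0 of 10 past the threshold and a median of 0.073. In 2 of the 10 the groups did not overlap, beside 12.6% of all genes, TRZ1 lower in the deletion and LSM3, named after its values were seen, higher (0.16, limma adjusted p = 0.192). TRZ1 was at 11.07, 11.12 and 11.08 in the deletion, below all wild-type cultures (11.13 to 11.36), with a difference of -0.14 that did not pass (limma adjusted p = 0.191). Genes of both lists were mostly short, with median lengths of 555 and 430 bp. With the length trend removed, their medians were 0.036 and 0.043, and the difference of RPR2 was 0.085. Those of TRZ1 and LSM3 were -0.082 and 0.10, and for both genes the groups then overlapped.

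Surveillance and decay of tRNA held the single gene of these lists that passed, 1 of 9, beside 5.52% of all genes. The groups did not overlap in 2 of the 9, beside 12.6% of all genes. At an unadjusted p under 0.05 the count was 3 of 9, against 22.0% of all genes. The list's median difference was -0.016, and it turned to 0.038 with the length trend removed. MET22, a phosphatase whose substrate inhibits the RNA exonucleases Xrn1 and Rat1 when it builds up, was at 11.78, 11.83 and 11.99 in the deletion, above all wild-type cultures (11.53 to 11.68). It rose by 0.26 on the log2 scale (interval 0.14 to 0.38, limma adjusted p = 0.026). The difference was 0.20 to 0.30 over 18 alternative fits, lowest without culture 9. The call was lost in 5 of these 18: without culture 4, 8 or 9 (limma adjusted p = 0.054, 0.077 and 0.113), without wild-type cultures 1 and 4 together (0.0743) and with all probe sets tested (0.0705). It was kept with the length trend removed (limma adjusted p = 0.00847, the lowest of the 18).

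Traffic between nucleus and cytosol had 0 of 8 genes past the threshold, beside 5.52% of all genes, and a median of 0.0017. Its smallest p belonged to MSN5, an exportin that returns spliced tRNA to the cytosol, with -0.095 (limma adjusted p = 0.31), and -0.040 with the length trend removed. The UtpA partners of Utp8 had 0 of 6 past the threshold, beside the same share of all genes. The median of these partners, -0.016, turned to 0.033 with the length trend removed. UTP10 had the smallest p, with -0.11 (limma adjusted p = 0.302). Its difference was -0.045 without culture 8, -0.16 without culture 9 and -0.059 with the length trend removed.

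Trl1 also joins the exons of HAC1 mRNA, which encodes the activator of the unfolded protein response, after Ire1 has cut it. Of 11 genes of that branch 0 passed by limma, beside 5.52% of all genes. At an unadjusted p under 0.05 the count was 0 of 11, against 22.0% of all genes. The median of the branch was -0.075, and 9 of the 11 were lower in the deletion, beside 54.7% of all genes. The median was -0.063, and 8 were lower, with the length trend removed. LHS1, a chaperone of the endoplasmic reticulum, had the smallest p (-0.17, limma adjusted p = 0.28), and its difference was -0.096 without culture 8, -0.26 without culture 7 and -0.092 without wild-type cultures 1 and 4. HAC1 and the chaperone gene KAR2, named here after their values were seen, had differences of 0.12 and -0.098 (limma adjusted p = 0.319 and 0.321). That of HAC1 was 0.068 without culture 9, 0.17 without culture 7 and 0.078 without wild-type cultures 1 and 4. It was 0.12 with the length trend removed. That of KAR2 was -0.055 without wild-type cultures 1 and 4, -0.14 without culture 7 and -0.049 with the length trend removed. Probe set values do not separate spliced from unspliced HAC1 mRNA.

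**Figure D5:**
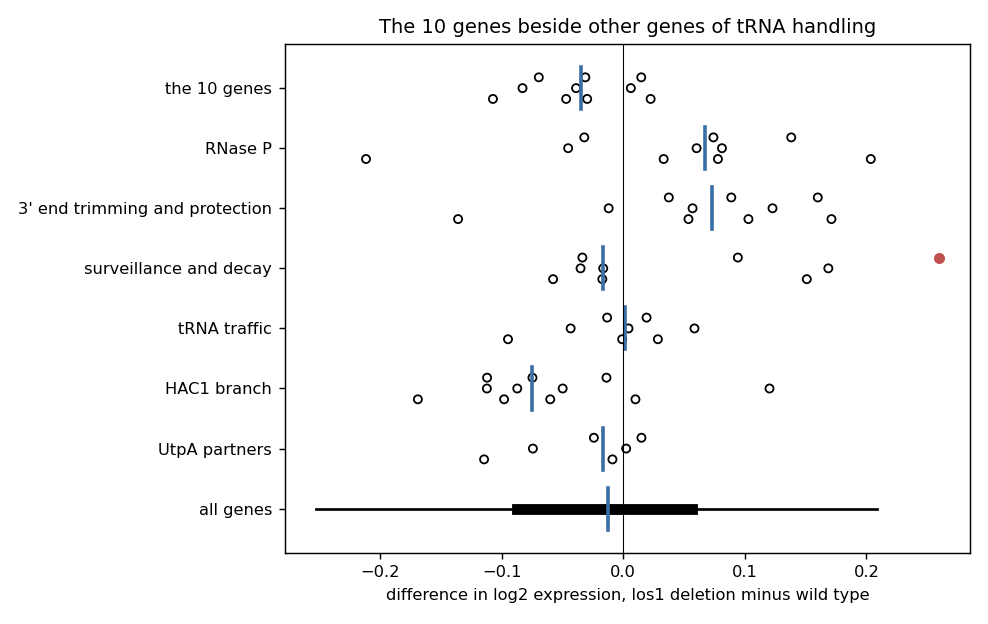
Difference in log2 expression (deletion minus wild type, horizontal axis) of the 10 genes and of the 6 lists, each circle 1 gene, with the median as a blue bar. The filled red point is MET22, the gene that passed the limma threshold, and the bottom row gives the 5th to 95th percentile (thin line, -0.25 to 0.21) and the 25th to 75th percentile (thick line) of all genes.

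The profiles most like that of CCA1, the gene with the smallest p, were sought among all genes by the root mean square distance between log2 differences from the wild-type mean over 9 arrays. The closest were THP3, SBE22, RNA14, EFR3 and GCN2, at distances of 0.030 to 0.038. The median over all genes was 0.13, and the closest genes lie under it by choice. RNA14 encodes a factor of mRNA 3′ end formation, and GCN2 the kinase that senses uncharged tRNA. Their differences, which the choice by likeness fixes near that of CCA1, were -0.094 to -0.072. With the length trend removed they were -0.068 for THP3 and -0.035 to -0.018 for the other 4, beside -0.069 for CCA1.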

How the data were processed

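The authors deposited log2 values per probe set. They used RMA, as the submitters' processing notes say, and the version is not given in the sources used here. RMA includes quantile normalization, which hides any shift common to most transcripts. Of 10928 probe sets, 5498 matched S. cerevisiae assembly R64 by gene identifier, and the brightest probe set was kept for each of 5449 genes. Each of the 10 genes had 1 probe set and lay above background on every array. The lowest value was 8.97, of CEX1 in wild-type culture 5, where background was 4.71. Symbols and gene lengths come from RefSeq. Coordinates are left out because the labels state no build for the arrays. Differences were tested with limma 3.58.1 (lmFit, eBayes, 2-sided) in R 4.3.3 over all 9 arrays, with Benjamini-Hochberg adjustment over 5449 genes. The fit was tested on simulated data with independent arrays, no length trend and differences larger than any of the 10 genes showed. Recovery of smaller differences was not tested. The number of arrays limits the precision.

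The genes, the lists and the alternatives were chosen with earlier results of these data known. Genes named from a list are those past the threshold and the one with the smallest p, and others are said to be chosen later. The 5 profiles most like the gene with the smallest p were named too. The alternatives were median centring, repeated quantile normalization, leaving out genes under background, all probe sets, averaged probe sets, eBayes with trend and robust settings (statmod 1.5.0), array weights, leaving out wild-type cultures 1 and 4 (which earlier results set apart), and leaving out each array. Added after the data were seen was the removal of a lowess trend (span 0.3) of each array on gene length.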

Additional observations from a re-analysis of the deposited data

Results flagged for a closer look

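UTP8 in wild-type culture 5 was at 11.48, apart from the other wild-type cultures, which lay at 11.58 to 11.64. The gap to its nearest neighbour was 0.629 of the group's range, just above Dixon's 95% critical value for 6 samples. Chance flags about 1 in 20 groups, and 4.61% of all genes had such a culture among the wild type, so a single one among 10 genes is near that share. With the length trend removed from each array, the largest such gap of UTP8 was 0.499 of the range, under the critical value, and belonged to culture 6.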

How the results depend on the processing

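Of the 10 genes 0 passed under any of the 18 alternatives run, including the 9 that left out 1 array. Differences of SEN15, TRL1 and CCA1 kept their sign in all of them. Signs of the smaller differences turned. Without wild-type cultures 1 and 4 they were -0.020 for SEN2, -0.013 for TPT1, -0.0087 for LHP1 and 0.022 for CEX1. With the length trend removed they were -0.011 for TPT1, 0.014 for CEX1 and 0.0044 for UTP8. Leaving out each array gave -0.033 to 0.038 for SEN2, -0.068 to 0.041 for SEN34, -0.045 to 0.0077 for SEN54, -0.0092 to 0.041 for TPT1, -0.12 to 0.019 for CEX1 and -0.090 to 0.016 for UTP8. The surveillance and decay list had 0 genes past the threshold with all probe sets, 2 with array weights (MET22 and TRF5, the second named after its value was seen), 0 without wild-type cultures 1 and 4, and 0 to 1 when each array was left out. Over all genes 301 passed (143 higher, 158 lower in the deletion). The count was 169 with all probe sets, 498 with array weights, 146 without wild-type cultures 1 and 4, and 126 (without culture 8) to 478 (without culture 5) when each array was left out. After repeated quantile normalization 175 were higher and 126 lower, and with the length trend removed 434 passed, 226 higher and 208 lower, 284 of them shared with the 301. The causes of these changes were not tested. No paired analysis was possible because the groups share no replicate numbers. At the errors of the main fit, differences under about 0.18 on the log2 scale would not have passed for any of the 10 genes.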
